A study of Mus musculus with 12 samples.

Results

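The retinoic acid pathway and the switch into meiosis were followed through 10 genes, which were picked by name from the gene rows of the deposited count table, out of 20620 such rows. *Aldh1a1*, *Aldh1a2* and *Rdh10* make retinoic acid, *Cyp26b1* breaks it down, *Rara*, *Rarg* and *Crabp1* receive it, and *Stra8*, *Meioc* and *Ythdc2* carry out meiotic entry. All 10 passed the filter on low counts in RNA and in footprints.

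RNA and ribosome footprints, the RNA fragments that ribosomes protect from nuclease, were sequenced from testes of C57BL/6 mice at postnatal day 16. One genotype was *Mael*-/-, which lacks Maelstrom, a protein of the piRNA pathway that holds transposons down in germ cells, and the other was its *Mael*+/- control, which keeps a working copy. Each of the 4 groups of genotype and assay held 3 libraries, called biological replicates by the labels, and the number of mice behind each extract is not given in the sources used here. In whole testis, fewer cells of a type and less RNA per cell cannot be told apart.

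Retinoic acid is made from vitamin A by successive oxidations, first by retinol dehydrogenases such as RDH10 and then by the ALDH1A enzymes. It enters the nucleus, binds retinoic acid receptors on DNA, and in the postnatal testis drives spermatogonia first to differentiate and later to enter meiosis, largely by switching on *Stra8*. CYP26 enzymes of the somatic cells degrade it, and MEIOC with its partner YTHDC2 then holds germ cells in meiotic prophase by clearing transcripts of the mitotic cycle.

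RNA libraries held 13697267 to 27462358 gene counts each and footprint libraries 7609932 to 13233565. *Mael* had 173 ± 39.9 CPM (SD, n = 3) in *Mael*+/- RNA, where CPM are counts scaled to the same library size, and counts of 1, 2 and 0 in the *Mael*-/- libraries, and its footprint counts there were 0, 0 and 7. *Mael*+/- replicate 1 stood apart in both assays. Its 15 markers of pachytene spermatocytes summed to 961 CPM in RNA, against 333 and 367 CPM in the other *Mael*+/- libraries and 271 to 309 CPM in *Mael*-/-. In footprints the same sum was 1141 CPM, against 330 and 417 CPM and 295 to 341 CPM. Markers of round spermatids, the stage after meiosis, were low, with 3 of 8 at 0 in every RNA library and *Spaca1* the highest at 4.86 to 6.85 CPM. Markers of Sertoli cells summed to 6975 to 7994 CPM in *Mael*+/- RNA and 7262 to 7978 CPM in *Mael*-/- RNA. Summed markers of peritubular myoid cells did not overlap in RNA, at 879 to 923 CPM in *Mael*+/- and 991 to 1042 CPM in *Mael*-/-. In footprints they did overlap, at 1145 to 1417 CPM and 1394 to 1722 CPM, where only *Mael*+/- replicate 1 reached into the *Mael*-/- range. Of these markers 5 of 5 were higher in both assays, against 49.6% of all genes in RNA and 47.6% in footprints, and 0 were called. Without *Mael*+/- replicate 1 it was again 5 of 5 in each assay (median log2 change 0.18 in RNA and 0.34 in footprints), with 0 called. Macrophage markers were higher in 6 of 6 cases in RNA (median log2 change 0.37) and 5 of 6 in footprints, with 0 called. Without *Mael*+/- replicate 1 they were higher in 5 of 6 in RNA (median 0.29) and 4 of 6 in footprints. For some results below the value without *Mael*+/- replicate 1 is given too, and a result shown without it may still have moved. The closing section gives the range of each change of the 10 genes that turned sign with 1 library left out.

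*Stra8* is the classical target of retinoic acid receptors among the 10 genes, so the sequence before its start is shown. The receptors bind pairs of half-sites such as AGGTCA. This 6-letter motif was searched on both strands in the RefSeq promoter windows of GRCm38.p6, each 250 bases before to 50 bases after an annotated start. The 1 *Stra8* window in that table, chr6:34920698-34920997 on the plus strand, reads as follows, with the half-sites in capitals.
Stra8: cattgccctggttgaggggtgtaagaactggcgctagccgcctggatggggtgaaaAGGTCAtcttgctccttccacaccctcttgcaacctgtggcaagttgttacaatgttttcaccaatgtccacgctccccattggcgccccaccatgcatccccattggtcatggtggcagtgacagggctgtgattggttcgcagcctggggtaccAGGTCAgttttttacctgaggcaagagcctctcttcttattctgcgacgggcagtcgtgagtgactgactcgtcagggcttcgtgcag
The window is set on the start of the curated RefSeq transcript, at position 34920948. A predicted transcript starts 785 bases upstream of it, where the annotated gene begins. Both copies lie on the strand of the gene and begin 194 and 38 bases before the curated start, 156 bases apart. Of 32851 windows of the same length, 16.3% held the motif at least once, 1.79% held it 2 or more times, and 0.563% held it 2 or more times on the strand of the gene. No window of *Rdh10* or *Ythdc2* was read. The other 8 of the 10 genes had 13 windows in all, and 3 of these genes held the motif. Beside *Stra8* these were *Rara*, with 1 copy in 1 window, and *Rarg*, with 1 copy on the other strand in 1 window. The match is of letters alone, since no binding was measured and the spacing of copies was no part of the search. The 2 *Stra8* copies, 156 bases apart, are not shown to form a receptor pair.

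The comparison of the genotypes asked whether supply, breakdown and reception of retinoic acid and the entry into meiosis differed in testes without Maelstrom. None of the 10 genes passed the test. Of all genes tested, edgeR's quasi-likelihood test called 0.116% in RNA (17 of 14685) and 0.0593% in footprints (8 of 13500) at an adjusted p under 0.05, and 0 of the 10 were among them. DESeq2 and limma voom also called 0 of the 10 in each assay. An unadjusted p under 0.05 was reached by 0 of the 10 in either assay, against 5.4% and 4.33% of all genes. RNA changes of *Mael*-/- over *Mael*+/- on the log2 scale spanned -0.13 to 0.12, with 6 genes higher and 4 lower and a median of 0.06, where the median of all genes was -0.0013. Footprint changes spanned -0.13 to 0.14, with 5 higher and 5 lower.

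The intervals set bounds on what may have gone unseen. Each of the 10 genes had a 95% confidence interval inside 2-fold either way in both assays, as did 88.7% of all genes in RNA and 90.9% in footprints. The interval stayed inside 1.5-fold for 9 of 10 in each assay, against 72.1% and 72% of all genes. The exception was *Meioc*, whose log2 interval was -0.47 to 0.68 in RNA and -0.40 to 0.60 in footprints. The libraries of the 2 genotypes did not overlap for 1 of 10 genes in RNA, *Cyp26b1*, and 1 of 10 in footprints, *Crabp1*, both lower in *Mael*-/-. Of all genes, 10.3% in RNA and 9.09% in footprints did not overlap.

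**Figure D1:**
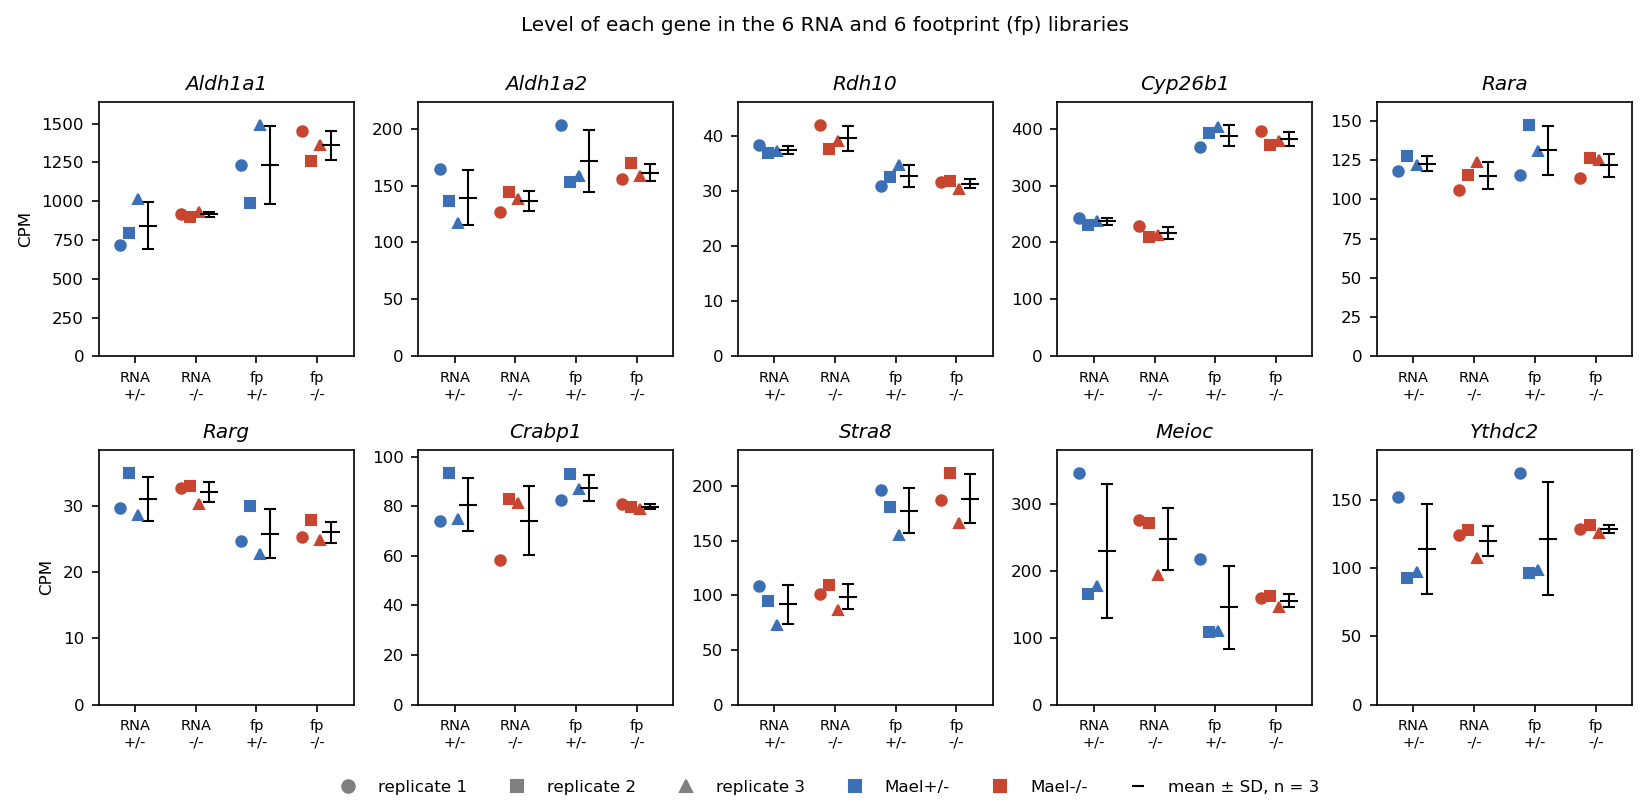
Level of each of the 10 genes in CPM (vertical axes, starting at 0) in RNA and footprint (fp) libraries of *Mael*+/- (blue) and *Mael*-/- (red) testes, where circles, squares and triangles are replicates 1, 2 and 3 and bars are mean ± SD of 3 libraries. The circle of *Mael*+/- replicate 1 lies far above the other *Mael*+/- libraries for *Meioc* and *Ythdc2*.

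**Figure D2:**
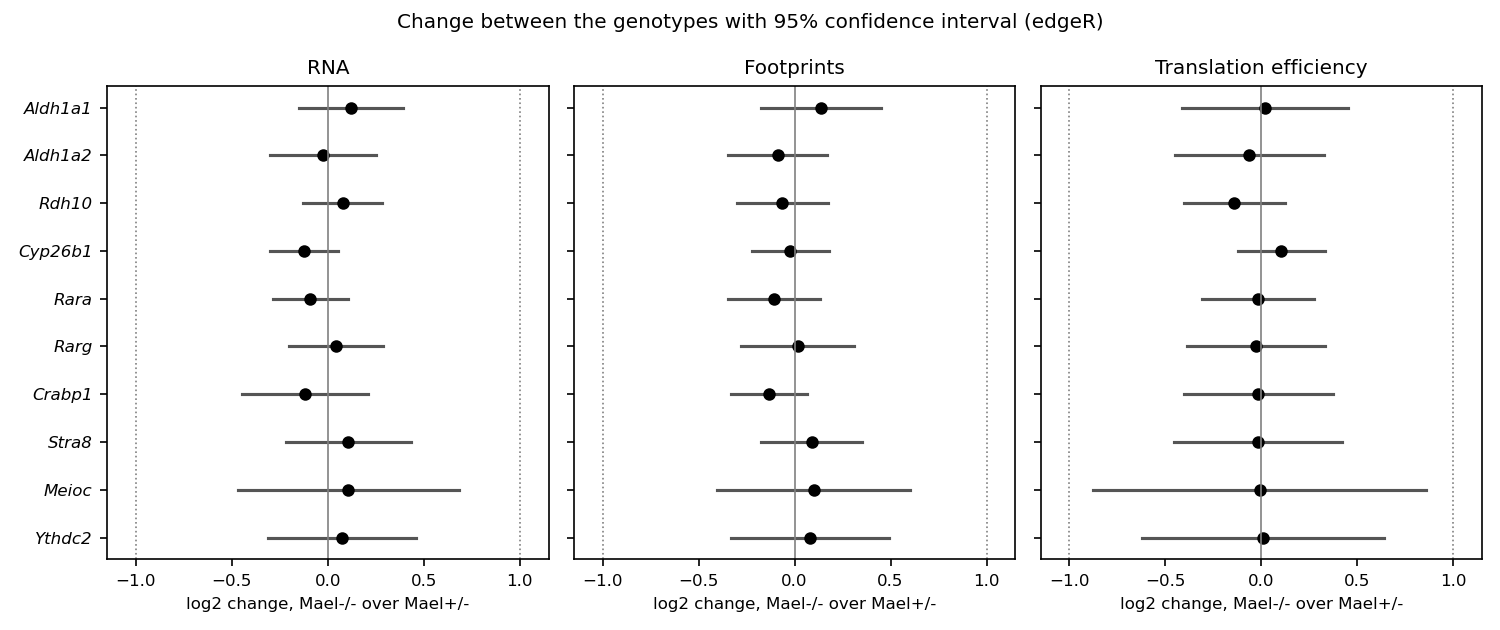
Log2 change of *Mael*-/- over *Mael*+/- for each gene (points) with its 95% confidence interval from edgeR (lines) for RNA, footprints and translation efficiency, where dotted lines mark a change of 2-fold either way. Every interval crosses 0 and stays inside the dotted lines, and those of *Meioc* and *Ythdc2* in translation efficiency are the widest. That fit left out the pairing of RNA and footprint libraries, and with the pairing the *Meioc* interval ran from -0.22 to 0.23.

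The enzymes that make retinoic acid did not pass the test in either assay. *Aldh1a1*, one of the retinaldehyde dehydrogenases (chr19:20492583-20643463, GRCm38), had 719, 795 and 1013 CPM in *Mael*+/- RNA and 918, 897 and 932 CPM in *Mael*-/- RNA. The *Mael*-/- libraries thus lay inside the range of the controls, which spread widely (SD 152 CPM). The log2 change was 0.12 ± 0.12 (SE, adjusted p = 0.982, edgeR quasi-likelihood test). It was 0.02 without *Mael*+/- replicate 1, the lowest control, and 0.27 without replicate 3, the highest (edgeR unadjusted p = 0.018, adjusted p = 0.404). Its footprints were at 1232, 986 and 1490 CPM in *Mael*+/- and 1452, 1263 and 1364 CPM in *Mael*-/-, again nested within the controls. *Aldh1a1* was the most abundant of the 10 per length of transcript, with 279 CPM per kb of exons in *Mael*+/- RNA, at the 99.1 percentile of all genes.

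*Aldh1a2*, another retinaldehyde dehydrogenase, the one that germ cells are best known for (chr9:71215789-71296243), had 165, 136 and 117 CPM in *Mael*+/- RNA and 127, 144 and 138 CPM in *Mael*-/- RNA. Its footprints were at 203, 153 and 158 CPM in *Mael*+/- and 156, 170 and 158 CPM in *Mael*-/-. In each assay *Mael*+/- replicate 1 was the highest of the 6 libraries and the rest overlapped. The log2 change was -0.03 ± 0.12 in RNA and -0.09 ± 0.12 in footprints, and without replicate 1 of *Mael*+/- it was 0.11 ± 0.10 and 0.05 ± 0.09. Per kb of exons, the ratio of *Aldh1a1* to *Aldh1a2* RNA was 4.72 ± 1.64 in *Mael*+/- and 5.04 ± 0.38 in *Mael*-/- (SD, n = 3).

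*Rdh10*, the retinol dehydrogenase of the first step, was the steadiest of the genes that make retinoic acid. Its RNA was at 38.3, 36.9 and 37.2 CPM in *Mael*+/- and 41.9, 37.6 and 39.1 CPM in *Mael*-/-, and the groups overlapped only by the lowest *Mael*-/- library. Its footprints were at 30.9, 32.6 and 34.7 CPM against 31.7, 31.8 and 30.4 CPM. The changes, of 0.08 ± 0.09 and -0.06 ± 0.11 on the log2 scale, had opposite signs in the 2 assays and neither passed the test.

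Of 16 other genes of vitamin A uptake, storage and oxidation, 14 were tested in RNA and 13 in footprints, and edgeR called 0 in each. In RNA 9 were higher and 5 lower, with a median log2 change of 0.09. They include *Stra6*, the receptor that takes up retinol, at 0.15 ± 0.15 in RNA. *Adh1*, an alcohol dehydrogenase that oxidizes retinol, had the only unadjusted p under 0.05 of the list, in footprints (log2 change -0.35 ± 0.13, edgeR unadjusted p = 0.019, adjusted p = 0.999).

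On the side of breakdown, *Cyp26b1*, the retinoic acid hydroxylase of Sertoli and peritubular cells (chr6:84571414-84593908, minus strand), had 244, 230 and 238 CPM in *Mael*+/- RNA and 229, 210 and 213 CPM in *Mael*-/- RNA. The highest *Mael*-/- library lay just below the lowest control, so the groups did not overlap. The difference was 0.917-fold (95% confidence interval 0.81 to 1.04, unadjusted p = 0.147, adjusted p = 0.982, edgeR). Footprints of *Cyp26b1* showed no such separation, with 367, 393 and 403 CPM in *Mael*+/- and 395, 372 and 378 CPM in *Mael*-/-. The part of the peritubular and other somatic markers in these values was not tested.

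*Cyp26a1*, the related enzyme, is no member of the 10 and was far less abundant. It had 6.04 to 9.67 CPM in *Mael*+/- RNA and 10.7 to 12.9 CPM in *Mael*-/- RNA. Its log2 change was 0.47 ± 0.19 in RNA (edgeR unadjusted p = 0.0354, adjusted p = 0.9) and 0.48 ± 0.24 in footprints (adjusted p = 0.999), so it was not called. The genotypes did not overlap in RNA or in footprints (5.30 to 10.7 CPM against 10.8 to 13.9 CPM). Of all genes, 10.3% and 9.09% did not overlap. Without *Mael*+/- replicate 1 the change was 0.54 ± 0.19 in RNA (edgeR unadjusted p = 0.0121, adjusted p = 0.499). In footprints it was then 0.63 ± 0.24 (edgeR unadjusted p = 0.0242, adjusted p = 0.725), again not called. Per kb of exons, *Cyp26b1* RNA was at 11 ± 2.67 times the level of *Cyp26a1* in *Mael*+/- and at 7.01 ± 0.408 times in *Mael*-/- (SD, n = 3). *Cyp26c1*, the remaining enzyme of the family, reached at most 0.297 CPM in RNA and did not pass the filter on low counts.

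Among the genes that receive retinoic acid, *Rara*, the receptor most abundant in Sertoli cells, had 118, 128 and 122 CPM in *Mael*+/- RNA and 106, 116 and 123 CPM in *Mael*-/- RNA. Its footprints were at 116, 147 and 131 CPM in *Mael*+/- and 113, 127 and 125 CPM in *Mael*-/-. The *Mael*-/- mean was a little lower in each assay and the libraries overlapped, with log2 changes of -0.09 ± 0.09 and -0.11 ± 0.11. *Rarg*, the receptor of spermatogonia, had 29.8, 35.0 and 28.6 CPM in *Mael*+/- RNA and 32.8, 33.1 and 30.4 CPM in *Mael*-/- RNA. All 3 *Mael*-/- libraries lay inside the control range, and the log2 change was 0.04 ± 0.11. Per kb of exons, *Rara* RNA was at 3.10 ± 0.239 times the level of *Rarg* in *Mael*+/- and at 2.82 ± 0.335 times in *Mael*-/-.

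*Crabp1*, which binds retinoic acid in the cytoplasm, had 74.0, 93.2 and 74.7 CPM in *Mael*+/- RNA and 58.2, 83.0 and 81.3 CPM in *Mael*-/- RNA. *Mael*-/- replicate 1 was the lowest of the 6, and its footprints did not share that dip. Footprints were at 82.6, 93.0 and 86.8 CPM in *Mael*+/- and 80.7, 79.6 and 78.7 CPM in *Mael*-/-, which did not overlap. That difference was 0.911-fold (95% confidence interval 0.794 to 1.05, unadjusted p = 0.166, adjusted p = 0.999, edgeR).

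Of 13 other genes of reception, which comprise retinoid X receptors, binding proteins, coactivators and corepressors, 12 were tested in RNA and 10 in footprints and edgeR called 0. In RNA 6 were higher and 6 lower, with a median log2 change of 0.01. *Rxra* and *Rxrb*, partners of the retinoic acid receptors on DNA, were at -0.07 ± 0.13 and 0.07 ± 0.08. *Crabp2*, which delivers retinoic acid to its receptors, had the only unadjusted p under 0.05 of the list. It was at 0.65 to 0.841 CPM in *Mael*+/- RNA and 1.09 to 1.17 CPM in *Mael*-/- RNA, with at most 32 counts in a library (edgeR unadjusted p = 0.0445, adjusted p = 0.919). Without *Mael*+/- replicate 1 the unadjusted p was 0.111 (edgeR, adjusted p = 0.881).

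*Stra8*, the gene that retinoic acid switches on before meiosis (chr6:34920948-34939344 for the curated transcript), had 108, 94.4 and 73.0 CPM in *Mael*+/- RNA and 101, 109 and 86.3 CPM in *Mael*-/- RNA. Its footprints were at 196, 181 and 155 CPM in *Mael*+/- and 188, 212 and 166 CPM in *Mael*-/-. The groups overlapped in each assay and replicate 3 was the lowest of both genotypes. The change was 1.08-fold in RNA (95% confidence interval 0.86 to 1.35, adjusted p = 0.982) and 1.06-fold in footprints (0.885 to 1.28, adjusted p = 0.999). Without replicate 1 of *Mael*+/- the log2 change was 0.24 ± 0.12 in RNA (unadjusted p = 0.0683, adjusted p = 0.809) and 0.17 ± 0.12 in footprints (adjusted p = 0.873). These p-values are from edgeR's quasi-likelihood test.

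*Meioc*, at chr11:102665351-102682240 and listed in the table under its older symbol *Gm1564*, was the gene of the 10 with the widest spread between control libraries. Its RNA was at 346, 166 and 178 CPM in *Mael*+/- and 276, 272 and 194 CPM in *Mael*-/-. Footprints were at 217, 108 and 110 CPM in *Mael*+/- and 159, 163 and 145 CPM in *Mael*-/-. In both assays *Mael*+/- replicate 1 was the highest of all 6 libraries, the other *Mael*+/- libraries were the lowest, and the 3 *Mael*-/- libraries lay between.

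*Ythdc2*, an RNA helicase that reads methylated adenosine and works with MEIOC, showed the same order. It had 152, 93.0 and 96.9 CPM in *Mael*+/- RNA and 125, 128 and 108 CPM in *Mael*-/- RNA. In footprints it had 169, 96.2 and 98.7 CPM in *Mael*+/- and 128, 132 and 126 CPM in *Mael*-/-. RNA and footprints of a replicate come from the same extract, so the 2 assays are not independent views of this order. *Mael*+/- replicate 1 exceeded the mean of the other *Mael*+/- libraries by 1.01 on the log2 scale for *Meioc* RNA, at the 97th percentile of all genes, and by 0.68 for *Ythdc2* RNA. Only 16.1% of genes departed by more than 0.5 in either direction in that library.

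With all libraries, log2 changes were 0.11 ± 0.26 for *Meioc* RNA and 0.07 ± 0.17 for *Ythdc2* RNA, and the groups overlapped. Without replicate 1 of *Mael*+/-, *Meioc* was higher in *Mael*-/- by 0.53 ± 0.13 in RNA (1.44-fold, unadjusted p = 0.00104, adjusted p = 0.135) and by 0.51 ± 0.09 in footprints (1.42-fold, unadjusted p = 1.47e-04, adjusted p = 0.0883, edgeR). *Ythdc2* was higher by 0.34 ± 0.10 in RNA (adjusted p = 0.296) and by 0.40 ± 0.09 in footprints (adjusted p = 0.195, edgeR). Neither gene was called, and the values with and without that 1 library differ by more than the standard errors.

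By unadjusted p (edgeR) without that library, *Meioc* ranked 22 and *Ythdc2* 51 of 13654 genes in footprints. In RNA they ranked 114 and 188 of 14876. The library left out held the highest level of both genes. Leaving it out raises their change and narrows the control spread, so the ranks are no separate evidence. Without that library the genotypes did not overlap for 4 of the 10 genes in RNA and 5 in footprints, where 20.2% and 21.4% of all genes did not overlap. Of all genes, 6.41% and 6.12% had an unadjusted p under 0.05 in that fit, as did 2 of the 10 in each assay. An adjusted p under 0.05 was reached by 0.43% of genes in RNA and 0.125% in footprints, and by 0 of the 10.

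**Figure D3:**
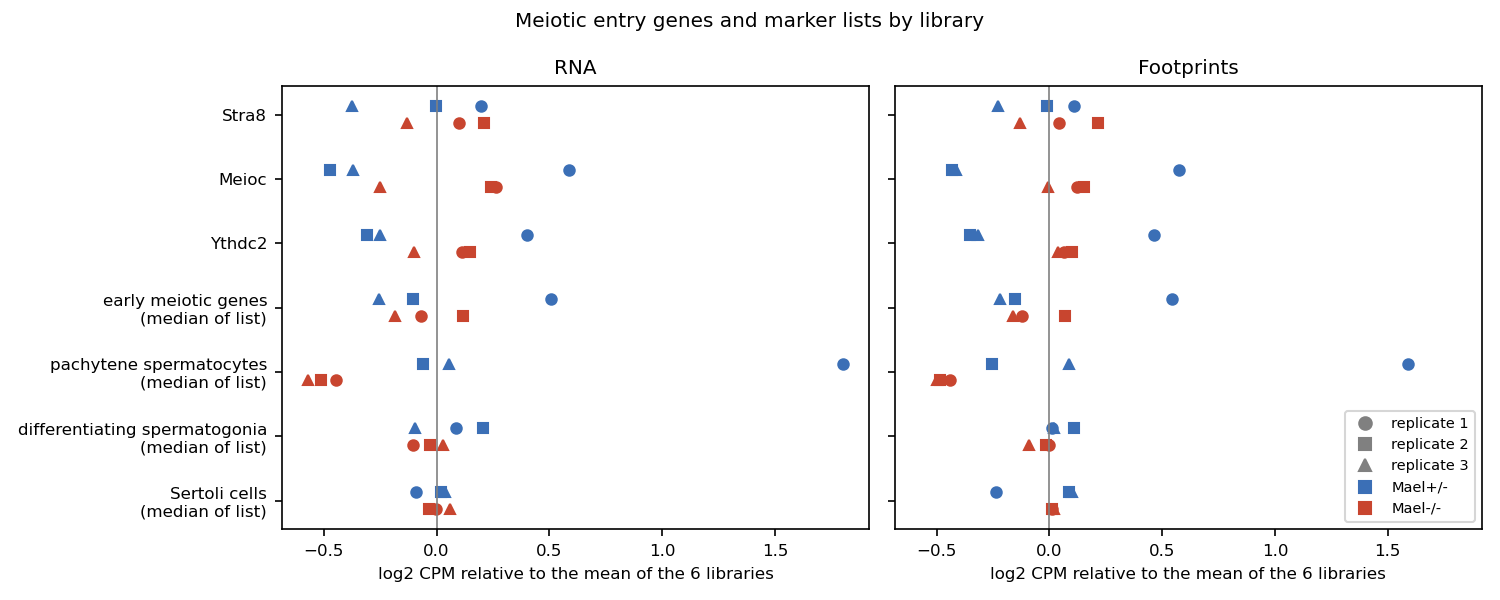
Log2 CPM relative to the mean of the 6 libraries of an assay for *Stra8*, *Meioc* and *Ythdc2* and for the median gene of 4 marker lists, in *Mael*+/- (blue) and *Mael*-/- (red), where circles, squares and triangles are replicates 1, 2 and 3. *Mael*+/- replicate 1 lies far to the right for pachytene markers (1.80 in RNA), and less far for *Meioc* (0.59), early meiotic genes (0.51) and *Ythdc2* (0.40).

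Genes of early meiotic prophase stood beside these 2 as a companion list of 15, including *Sycp3*, of the synaptonemal complex, *Rec8*, the meiotic cohesin, and *Spo11*, which makes the breaks of recombination. Their summed level was 3132 CPM in *Mael*+/- replicate 1 RNA, against 1530 and 1603 CPM in the other *Mael*+/- libraries and 1473 to 1968 CPM in *Mael*-/-. With all libraries edgeR called 0 of the 15 in either assay, 11 were lower in *Mael*-/- RNA and the median log2 change was -0.16. Without *Mael*+/- replicate 1, 11 of 15 were higher in RNA, the median was 0.09, and 1 gene was called, *Meiob*, a single-stranded DNA binding protein of recombination, which was higher. The 12 pachytene markers tested were all lower in *Mael*-/- RNA with a median of -1.36. Without that library 10 were lower with a median of -0.44, and 8 had an unadjusted p under 0.05 (edgeR), against 6.41% of all genes. Of the 12, 2 were called, *Adam2* and *Hspa2*, both lower, where 0.43% of all genes were called in RNA. Adjusted p in RNA (edgeR) was 0.0492 for *Meiob* and 0.0498 for *Hspa2*, just under the threshold, and 0.00273 for *Adam2*. In footprints without that library 0 genes of either list were called. The part of cell composition in the order of the *Meioc* and *Ythdc2* libraries was not tested.

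Of 14 other regulators of meiotic entry, 13 were in the table, 13 were tested in RNA and 12 in footprints, and edgeR called 0. In RNA 5 were higher and 8 lower, with a median log2 change of -0.06, and without *Mael*+/- replicate 1 the list turned to 7 higher and 6 lower with a median of 0.02. *Dazl*, a germ cell RNA-binding protein needed before the response to retinoic acid, was at -0.13 ± 0.19 (0.16 ± 0.11 without that library), and *Dmrt1*, which delays meiosis in spermatogonia, was at -0.02 ± 0.09. *Rbm46*, an RNA-binding partner of MEIOC and YTHDC2, was at -0.38 ± 0.21 in RNA and -0.47 ± 0.19 in footprints (edgeR unadjusted p = 0.0346, adjusted p = 0.999). Without *Mael*+/- replicate 1 it was at -0.06 ± 0.11 in RNA and -0.15 ± 0.10 in footprints (edgeR unadjusted p = 0.151, adjusted p = 0.872). Its *Mael*+/- footprints spread from 70.2 to 131 CPM, against 66.7 to 69.2 CPM in *Mael*-/-. *Meiosin*, the partner of STRA8, was not analysed here. Markers of differentiating spermatogonia, the stage before entry, had a median of -0.10 in RNA, with 0 of 6 called.

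Translation efficiency, the change of footprints beyond that of RNA, was called for 0 of 10 genes and for 0% of all 13448 tested by edgeR, DESeq2 or voom. An unadjusted p under 0.05 was reached by 0 of the 10 and by 54 of all genes (0.402%) in edgeR. In this edgeR fit, which left out the pairing of extracts, log2 changes ran from -0.14 for *Rdh10* to 0.10 for *Cyp26b1*. With the RNA and footprint libraries of an extract taken as a pair, the changes ran from -0.14 to 0.10, all 10 intervals lay within 1.5-fold, against 79.5% of all genes, and 0 of the 10 had an unadjusted p under 0.05, against 2.1% of all genes (282). Without the pairing 8 of 10 lay within 1.5-fold, and *Meioc* and *Ythdc2* did not.

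The genes differed among themselves in how many footprints they had per RNA. The measure was the log2 ratio of footprint CPM per kb of coding sequence to RNA CPM per kb of exons, ranked among 13389 genes. *Cyp26b1* was the highest of the 10, at 2.36 ± 0.10 in *Mael*+/- and 2.47 ± 0.02 in *Mael*-/- (SD, n = 3), the 95.1 percentile of all genes. *Meioc* was the lowest, at 0.00 ± 0.04 in *Mael*+/- and 0.01 ± 0.21 in *Mael*-/-, the 8.74 percentile. *Ythdc2*, at 0.62 ± 0.07 and 0.64 ± 0.11, was below the middle at the 35.6 percentile, while *Stra8*, at 1.28 ± 0.12 in *Mael*+/- and inside that spread in *Mael*-/-, was above it at the 70.0 percentile. Of the other members *Rara* and *Aldh1a1* were at the 80.8 percentile and *Crabp1*, *Rdh10*, *Rarg* and *Aldh1a2* between the 46.6 and 61.5 percentiles.

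The 3 genes of meiotic entry thus fell apart on this ratio, since each of the 6 extracts put *Stra8* above *Ythdc2* and *Ythdc2* above *Meioc*. RNA was counted over all exons and footprints over coding sequence alone, so the ratio also moves with how completely the exons used for the length are transcribed, which was not tested.

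**Figure D4:**
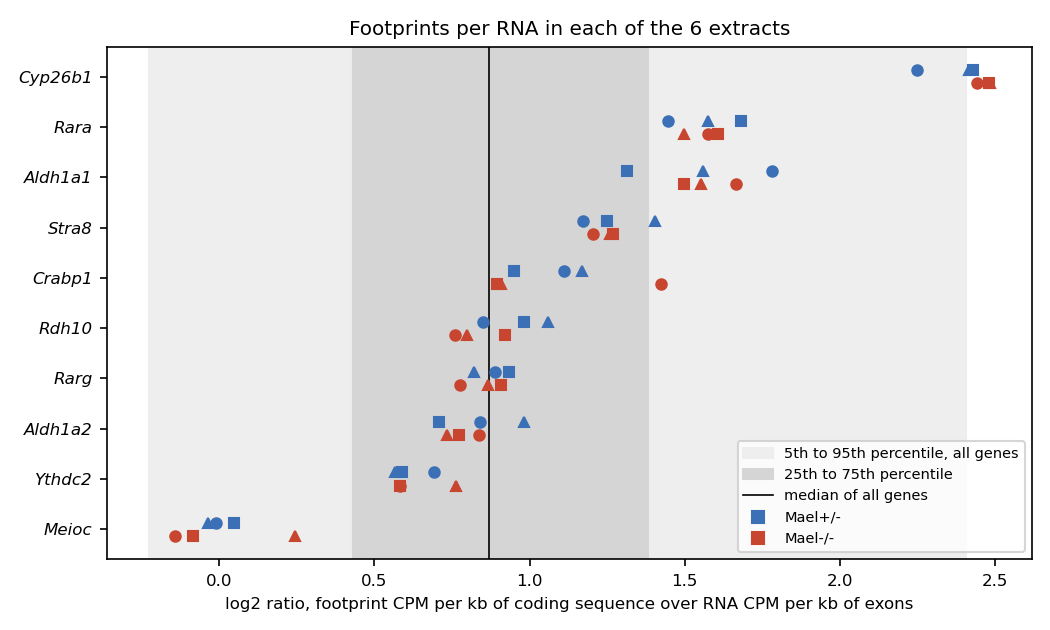
Log2 ratio of footprints to RNA per length for each gene in each of the 6 extracts, in *Mael*+/- (blue) and *Mael*-/- (red), where circles, squares and triangles are replicates 1, 2 and 3 and the shading gives the percentiles of all genes. *Cyp26b1* sits at the upper edge of the band, *Meioc* near its lower edge, and the genotypes lie together.

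Per length, the order of the RNA levels in *Mael*+/- was *Aldh1a1*, *Crabp1* (100.5 CPM per kb of exons), *Stra8* (62.5), *Aldh1a2* (61.5), *Meioc* (50.2), *Cyp26b1* (48.9), *Rara* (28.3), *Ythdc2* (18.1), *Rdh10* (16.3) and *Rarg* (9.16). Neighbors from *Stra8* to *Cyp26b1* differed by less than the spread of their libraries, as did *Ythdc2* and *Rdh10*. In footprints per kb of coding sequence, *Cyp26b1* (252 CPM per kb) moved up to follow *Aldh1a1* (821), while *Meioc* (50.1) stood below *Rara* (84.1).

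The pattern of a gene over the 12 libraries was compared with that of 12180 others by the root mean square difference of centered log2 CPM, as a description. The genes nearest to *Meioc* were *Tex16* (0.09), *Smc1b*, the meiotic cohesin subunit (0.11), and *Abca5* (0.11), where the median gene was at 0.39. The nearest to *Stra8* were *Ankhd1*, *Ncoa3* and *Brip1* (0.07 to 0.08, median gene 0.23), and the nearest to *Aldh1a2* were *Lsm2*, *Snrpc* and *Ddx39* (0.04 to 0.06, median gene 0.20). *Mael*+/- replicate 1 enters all these differences.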

How the data were processed

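RNA and ribosome footprints of 12 libraries were analysed from the table of raw counts deposited by the authors, in whole numbers without normalization. The authors clipped linkers, removed ribosomal reads with Bowtie 1.2.2, mapped to mm10 with STAR 2.6.0c and counted with featureCounts of Subread 1.6.4, over whole mRNAs for RNA and coding sequence for footprints. The strand setting and any collapsing of duplicates are not given in the sources used here, so counts may hold copies of a molecule. The deposited DESeq2 result tables hold the authors' fold changes and p-values and were not used.

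Tests ran over all genes in edgeR 4.0.16 under R 4.3.3 (quasi-likelihood, TMM within each assay, default filter on low counts, Benjamini-Hochberg adjustment over all genes tested, call at an adjusted p under 0.05). Translation efficiency was the interaction of genotype and assay. CPM are scaled by gene totals and TMM factors, and log2 CPM add a prior count of 0.5. DESeq2 1.42.0, limma 3.58.1 voom, other filters and scaling, replicate blocks and leaving out each library were the alternatives. P-values weigh a difference against the spread between these libraries.

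RNA and footprint libraries of an extract deviated together from their group means over 12181 genes (Pearson's r 0.79, 0.65 and 0.69 for *Mael*+/- and 0.24, 0.24 and 0.23 for *Mael*-/-, all above the limit of 0.1). The methods also take them from the same lysate. The ratios of footprints to RNA and an alternative fit of translation efficiency therefore took them as pairs, while the main fit did not. The exons of the 10 genes overlapped no other protein-coding exons in RefSeq GRCm38.p6, which also gave lengths and promoter windows. The tests were checked on simulated counts. The 10 genes and all lists were chosen with earlier results of these data known. The text names these 10, *Mael*, genes of companion and marker lists, and the 3 genes nearest in pattern to *Stra8*, *Meioc* and *Aldh1a2*. *Meiob*, *Adam2*, *Hspa2* and *Spaca1* were singled out after their values were seen.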

Additional observations from a re-analysis of the deposited data

How the results depend on the processing

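The number of the 10 genes called was 0 in RNA, footprints and translation efficiency under every alternative run, and their lowest adjusted p was 0.0883 (*Meioc* footprints without *Mael*+/- replicate 1). Over all genes, 17 calls in RNA became 58 with DESeq2, 36 with voom and 50 with a replicate block, and 2 to 64 when 1 library was left out. The 8 calls in footprints became 21 with DESeq2 and 23 with a replicate block, and 2 to 17 when 1 library was left out. Replicate numbers did not pair the genotypes (r 0.01 to 0.27 in RNA and 0.06 to 0.24 in footprints), and 3 and 4 of 6 libraries correlated best with their own number. The block of extracts changed no call in translation efficiency. Of 400 log2 changes of the 10 genes recomputed, 57 had the other sign, 54 of them with 1 library left out, and none of the reversed changes was above 0.14 in size with all libraries. Other alternatives that turned the sign were voom for *Aldh1a2* RNA (0.10) and for *Ythdc2* translation efficiency (-0.045), and pairing the extracts in a replicate block for *Meioc* translation efficiency (0.0043). With 1 library left out, RNA changes that turned ran from -0.14 to 0.11 for *Aldh1a2*, -0.015 to 0.13 for *Rarg*, -0.21 to 0.023 for *Crabp1*, -0.035 to 0.24 for *Stra8*, -0.082 to 0.53 for *Meioc* and -0.054 to 0.34 for *Ythdc2*. Footprint changes ran from -0.0018 to 0.29 for *Aldh1a1*, -0.16 to 0.047 for *Aldh1a2*, -0.061 to 0.0068 for *Cyp26b1*, -0.070 to 0.13 for *Rarg*, -0.00051 to 0.17 for *Stra8*, -0.072 to 0.51 for *Meioc* and -0.058 to 0.40 for *Ythdc2*. Changes in translation efficiency ran from -0.13 to 0.17 for *Aldh1a1*, -0.20 to 0.074 for *Aldh1a2*, -0.10 to 0.073 for *Rara*, -0.12 to 0.089 for *Rarg*, -0.16 to 0.071 for *Crabp1*, -0.15 to 0.13 for *Stra8*, -0.43 to 0.40 for *Meioc* and -0.26 to 0.32 for *Ythdc2*. In these fits of translation efficiency the extracts were unpaired, and the partner of the library left out stayed in. A deviation shared by both libraries of an extract therefore enters these ranges. With extracts paired and all libraries kept, confidence intervals were -0.22 to 0.23 for *Meioc* and -0.18 to 0.23 for *Ythdc2*. No fit without both libraries of an extract is given here. The highest and lowest *Meioc* and *Ythdc2* values in RNA and footprints came from leaving out *Mael*+/- replicates 1 and 2. With 3 libraries a group, changes inside the intervals above may have gone unseen. The intervals are not adjusted for the number of genes, so they bound the size of a change and not what could be called.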
